A study of Mus musculus with 36 samples.

Results

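The Krüppel-like factors (KLFs) described here are 9 genes of mouse bone marrow-derived macrophages: Klf2, Klf3, Klf4, Klf6, Klf7, Klf9, Klf10, Klf11 and Klf13. They were taken by gene symbol from the Ensembl identifiers in the deposited tables, which hold 52636 genes. The rule itself uses no measured value, but the members were chosen with earlier results of these data known. All 9 passed the filter on low counts, which left 13748 genes for testing. Macrophages were grown in M-CSF from marrow of C57BL/6N mice that were wild type (WT) or knockout for N4bp1 (KO), an RNA-binding protein that limits inflammatory signalling. All cells received R837 (imiquimod, an agonist of the RNA sensor TLR7). Cells of each genotype had R837 for 3 h or for 7 h. Others had it for 3 h before actinomycin D (ActD), an inhibitor of transcription, was given for 0.5, 1, 2 or 4 h, which makes 12 groups. Each group held 3 libraries, which the labels describe as macrophages of 3 individual mice, 36 libraries in all. Unstimulated macrophages were not analysed here, so every value below is from R837-treated cells. The sources used here do not give the age and sex of the mice or the deleted part of N4bp1.

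KLFs are zinc-finger transcription factors whose shared carboxy-terminal DNA-binding domain recognises GC-rich sequences and CACCC motifs, and whose differing amino-terminal parts recruit co-activators or co-repressors. Klf3 recruits the CtBP co-repressors and acts mainly as a repressor. Klf2, Klf4, Klf6 and Klf7 belong to the branch that mostly activates. In macrophages, KLF2 and KLF4 are known for restraining inflammatory activation, KLF4 also for alternative activation, and KLF6 for favouring inflammatory gene expression. KLF7 is widely expressed and best known from neurons and adipocytes. Klf9, Klf10, Klf11 and Klf13 belong to the branch that binds the Sin3 co-repressor. KLF10 and KLF11 were first described as early genes induced by TGF-beta, KLF9 is induced by glucocorticoid and thyroid hormone, and KLF13 is known as an activator of Ccl5 in T cells. Several of these messages are short-lived in many cells.

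On GRCm38 with GENCODE M21 gene models, the repressor Klf3 (ENSMUSG00000029178) lies on chromosome 5 from 64803388 to 64832901 on the plus strand. In the activator branch, Klf2 (ENSMUSG00000055148) lies on chromosome 8 from 72319033 to 72321656 on the plus strand, and Klf4 (ENSMUSG00000003032) on chromosome 4 from 55527143 to 55532466 on the minus strand. Klf6 (ENSMUSG00000000078) lies on chromosome 13 from 5861482 to 5870394 on the plus strand, and Klf7 (ENSMUSG00000025959) on chromosome 1 from 64029447 to 64122282 on the minus strand. In the Sin3-binding branch, Klf9 (ENSMUSG00000033863) lies on chromosome 19 from 23141226 to 23168134 on the plus strand, and Klf10 (ENSMUSG00000037465) on chromosome 15 from 38291463 to 38300706 on the minus strand. Klf11 (ENSMUSG00000020653) lies on chromosome 12 from 24651274 to 24662789 on the plus strand, and Klf13 (ENSMUSG00000052040) on chromosome 7 from 63886351 to 63938915 on the minus strand. The values are sums over each gene's exons. Exons of Klf3 overlap those of Gm20033, and exons of Klf7 overlap those of Gm13748 and Gm26649, but these neighbours had at most 4 counts in a library.

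Promoters were read because all 9 messages fell when transcription was blocked. RefSeq windows (GRCm38.p6) were at hand for 8 of the 9 genes. The 3 shown are those of Klf7, Klf13 and Klf2. Klf7 was a member higher in KO in every condition, and Klf13 had the lowest mean share left after 4 h of ActD. The Klf2 window holds a MEF2 motif, the element through which ERK5 drives this gene in endothelium. In that order the windows lie at chr1:64121492-64121639 (minus strand), chr7:63938916-63939165 (minus strand) and chr8:72318812-72319032 (plus strand). The RefSeq start used for Klf7 lies inside the GENCODE gene, so its window falls within the gene's span. Each is written 5′ to 3′ on the gene's strand, without bases in annotated exons, and capitals mark GC boxes, CACCC boxes and the MEF2 motif on either strand.
Klf7: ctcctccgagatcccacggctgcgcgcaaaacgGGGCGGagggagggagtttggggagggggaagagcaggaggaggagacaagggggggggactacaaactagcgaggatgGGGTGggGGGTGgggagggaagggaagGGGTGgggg
Klf13: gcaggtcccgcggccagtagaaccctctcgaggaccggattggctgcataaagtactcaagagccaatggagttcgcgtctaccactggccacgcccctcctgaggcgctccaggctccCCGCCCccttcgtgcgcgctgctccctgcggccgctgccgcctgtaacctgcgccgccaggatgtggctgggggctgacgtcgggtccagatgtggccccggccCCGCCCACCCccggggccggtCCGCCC
Klf2: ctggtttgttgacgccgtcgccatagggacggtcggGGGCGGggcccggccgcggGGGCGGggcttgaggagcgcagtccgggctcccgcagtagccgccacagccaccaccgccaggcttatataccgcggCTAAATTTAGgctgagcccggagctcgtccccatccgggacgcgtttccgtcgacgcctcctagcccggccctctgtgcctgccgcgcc
The GC box searched was GGGCGG and the CACCC box CACCC, both on either strand, and a GC box could overlap a CACCC box. Over the 250 bases before the start, Klf7 held 1 GC box and 3 CACCC boxes, Klf13 held 3 and 1, and Klf2 held 2 and 1, the last outside the stretch shown. Klf3 held 6 GC boxes and 5 CACCC boxes, but 0 of the 250 bases of its window lay outside annotated exons, so none is shown. Klf4 and Klf11 held 4 GC boxes each, Klf6 held 1, and Klf9 held no GC box but 1 CACCC box overlapping the only AP-1 motif (TGANTCA) of the 8 windows. Of 32851 promoter windows, 32.7% held a GC box, 52% a CACCC box, 6.75% the AP-1 motif and 2.92% the MEF2 motif. None of the 8 windows held a CRE (TGACGTCA), which 1.55% of all windows held, or the NF-kB or CArG motif, which 7.25% and 1.47% held. These matches describe letters and say nothing of binding.

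The libraries held 20271550 to 46107214 counts. N4bp1 is the targeted gene, and its whole-gene count was lower in the libraries labelled KO at 3 h, 7 h and after 0.5 and 1 h of ActD (log2 differences, KO minus WT, of -0.67, -0.28, -0.74 and -0.62). No difference was called after 2 h of ActD (0.08 ± 0.08, edgeR adjusted p = 0.453, the ± here and for log2 values below being the SE), and it was higher in KO after 4 h (0.61). WT and KO below therefore mean libraries so labelled, and the count over the whole gene does not by itself check the label. Macrophage markers summed to 20193 to 51445 CPM (counts scaled to a common library size) in each library. Neutrophil markers had the highest sums after these, at 86.7 to 184 CPM in WT and 95.6 to 214 in KO. At 7 h they summed to 86.7 to 93.4 CPM in WT and 95.6 to 106 in KO. Fibroblast markers summed to 12.1 to 24.2 CPM in WT and 29.3 to 40.9 in KO. B and plasma cell markers summed to 36.7 to 61.7 CPM in WT and 71.0 to 111 in KO. Endothelial markers summed to 11.7 to 26.3 CPM in WT and 17.8 to 28.3 in KO. Their sums overlapped between genotypes at 3 h of R837, and at 7 h were 14.3 to 14.7 in WT and 19.0 to 21.6 in KO. The medians were 9.16 CPM for Kdr, 6.12 for Vwf, 3.15 for Pecam1 and 1.17 for Cdh5. Those of Emcn, Tie1 and Tek were 0.0903, 0.0848 and 0. The part of these cells in the KLF differences between genotypes was not tested. Bulk libraries cannot tell apart fewer cells of a type and less RNA per cell.

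Klf6 was by far the most abundant KLF, Klf3 came next, and the Sin3-binding Klf9 and Klf11 were near the lower end of what could be measured. Levels between genes are given in the authors' RPKM, which divide by gene width. Over the 36 libraries the median was 167 RPKM for Klf6 (21.5 to 280.1) and 13.8 for Klf3 (1.14 to 33.8). It was 2.61 for Klf13, 1.82 for Klf7 and 1.03 for Klf10. The medians of Klf2, Klf4, Klf9 and Klf11 were 0.351, 0.349, 0.183 and 0.121 RPKM, with median counts of 21, 29.5, 18 and 13.5 per library. Those 4 genes had as few as 1, 3, 1 and 1 counts in a library, which limits the precision of their values.

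**Figure D1:**
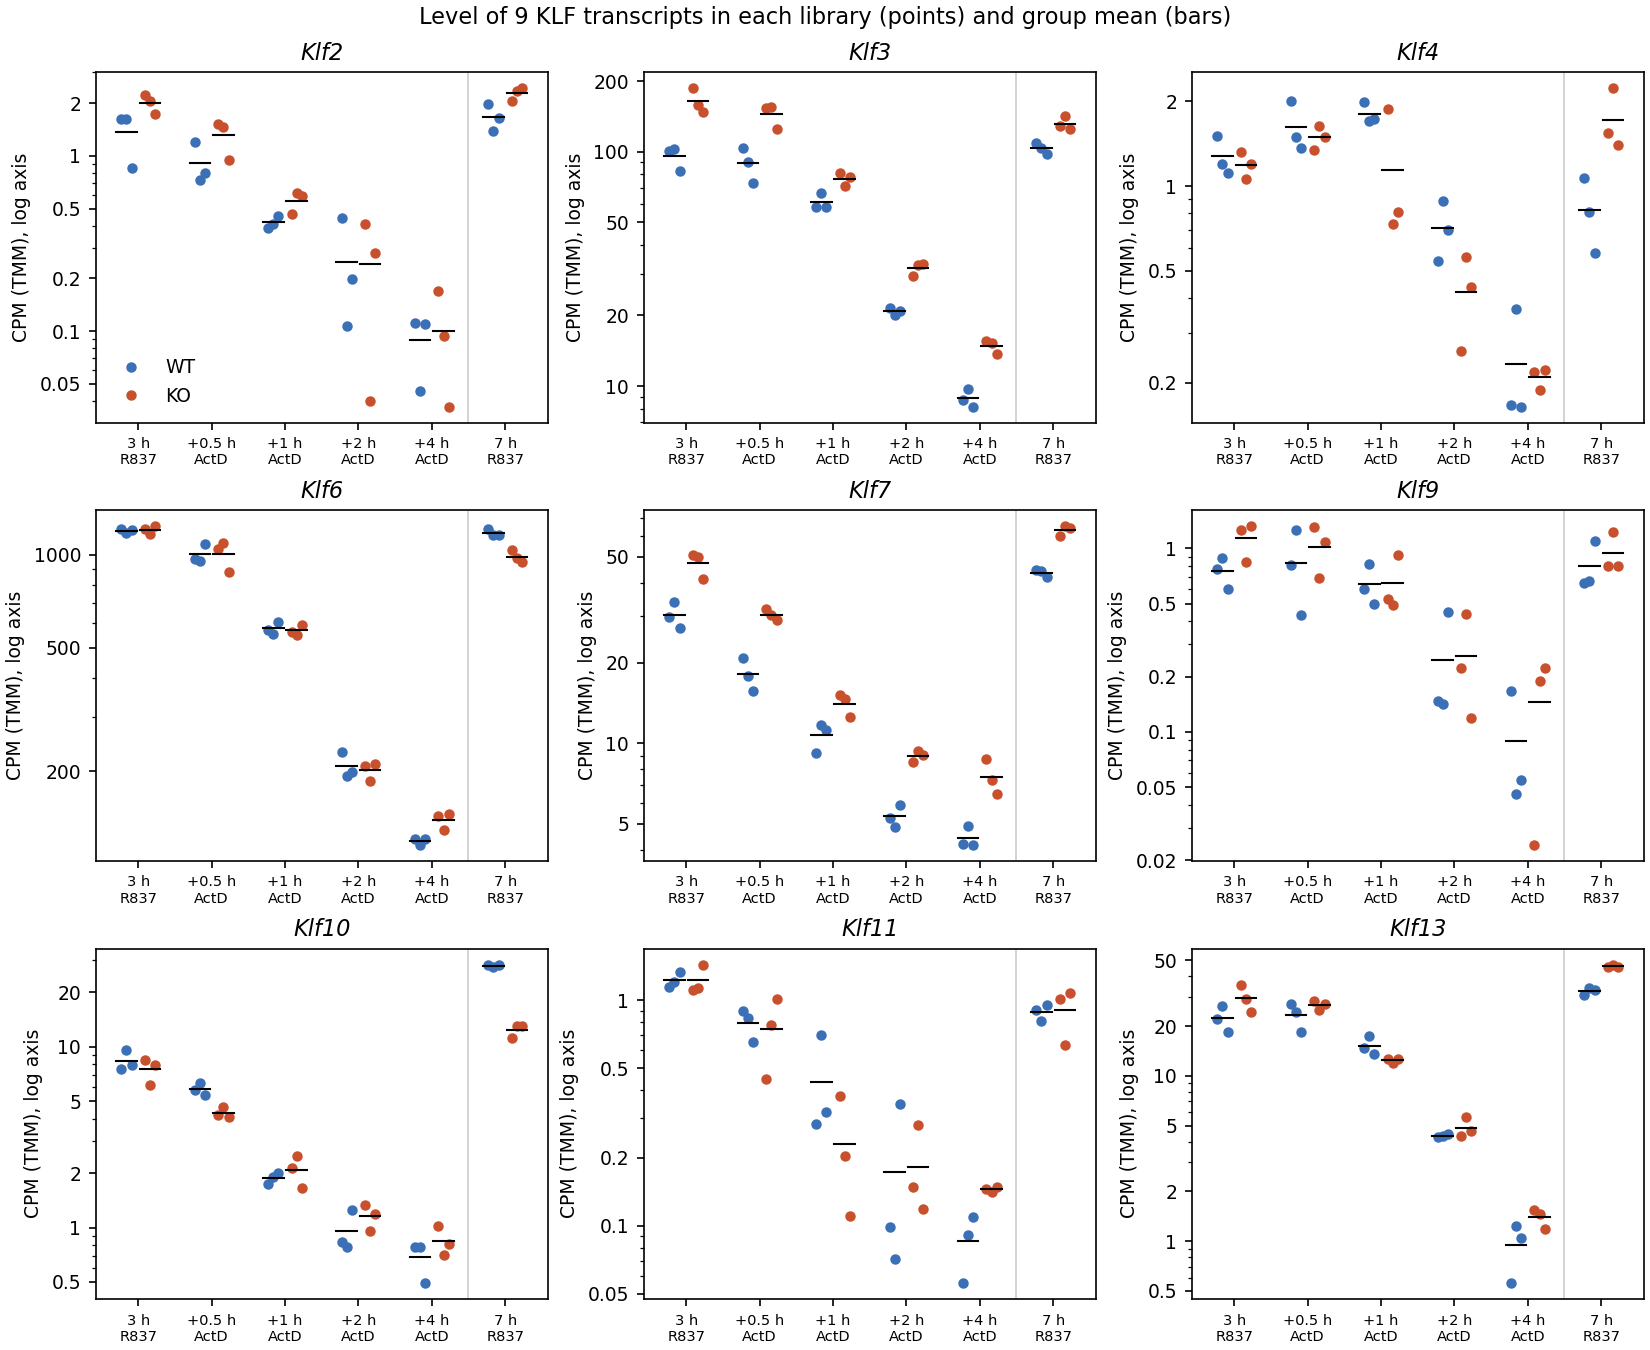
Level in CPM of the 9 KLFs in all 36 libraries, on a log axis that differs between panels, by genotype and condition; each point is 1 library (n = 3 per group). The means of all 9 are lowest after 4 h of ActD, those of Klf3 and Klf7 lie higher in KO in all 6 conditions, and Klf10 is highest in WT at 7 h.

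At 3 h of R837 in WT, the order by mean RPKM was Klf6 (276 ± 3.95, SD, n = 3), Klf3 (17.4 ± 2.10), Klf7 (3.67 ± 0.411), Klf13 (3.28 ± 0.590), Klf10 (2.68 ± 0.359), Klf2 (0.726 ± 0.236), Klf4 (0.412 ± 0.0683), Klf11 (0.294 ± 0.0229) and Klf9 (0.226 ± 0.0428). Of these neighbours, Klf7 and Klf13, Klf13 and Klf10, and Klf2 and Klf4 overlapped between libraries. At 7 h in WT, Klf10 (8.60 ± 0.150) was the third, above Klf7 (5.05 ± 0.158) and Klf13 (4.57 ± 0.250), with no overlap between Klf10 and Klf7. In KO at 7 h Klf10 (3.56 ± 0.310) was the fifth, below Klf7 (6.83 ± 0.312) and Klf13 (6.04 ± 0.133). Klf6 and Klf3 were first and second in all 4 groups without ActD.

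Blocking transcription lowered every KLF. After 2 h and 4 h of ActD all 9 were lower than at 3 h of R837 without ActD in both genotypes (edgeR's quasi-likelihood test, adjusted p under 0.05). Of all genes, 26.4% in WT and 27.4% in KO were called lower at 2 h, and 36.6% and 36.7% at 4 h. The median change of the 9 members at 4 h was -3.42 on the log2 scale in WT and -3.11 in KO, against -0.03 and -0.04 over all genes tested. These values are shares of the sequenced RNA, so a message that decays like the average keeps its CPM.

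Klf13 had the smallest mean share left of the 9 after 4 h, in both genotypes. Its level in WT was 22.2, 26.3 and 18.4 CPM at 3 h of R837 and 0.557, 1.23 and 1.04 CPM after 4 h of ActD. In KO it was 35.5, 29.2 and 24.2 CPM and then 1.55, 1.46 and 1.19 CPM. The groups with and without ActD were far apart, and 4.23 ± 1.56% of the starting mean was left in WT and 4.72 ± 0.641% in KO (SD of the 3 ActD libraries). Klf2 was close, with 6.50 ± 2.74% and 5.01 ± 3.32%, at counts of 1 to 2 per library in WT and 1 to 7 in KO. The order of these 2 genes is therefore not settled. No fall of Klf13 was called at 0.5 h, with 105% left in WT and 90.7% in KO.

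Klf7, Klf10 and Klf6 were the members called lower after 0.5 h of ActD. They were so in both genotypes, at an all-gene share called lower of 3.55% in WT and 4.34% in KO. Klf7 had changed by -0.74 on the log2 scale in WT (edgeR adjusted p = 1.00e-06) and by -0.64 in KO (edgeR adjusted p = 7.65e-06), which left 60.1 ± 8.48% and 64.3 ± 3.24%. Klf10, from the TGF-beta-inducible pair, had 69.8 ± 5.57% left in WT and 57.4 ± 3.88% in KO at 0.5 h (edgeR adjusted p = 0.00733 and 4.64e-05), and 22.6% and 27.9% at 1 h, the lowest share of the 9 in WT at that time. Klf6 had 84.0 ± 6.07% and 83.6 ± 9.12% left at 0.5 h (edgeR adjusted p = 0.0203 and 0.0150). With the scaling set on ribosomal protein and elongation factor genes (the ribosomal scaling below), 1 of these 3 calls in WT was left, that of Klf7. The same held when only the libraries compared were fitted. The Klf6 call in WT was also lost without replicate 1 or 3 at 3 h or replicate 1 or 2 at 0.5 h of ActD (adjusted p = 0.0706, 0.0602, 0.0910 and 0.118), and in KO without replicate 3 at either time (0.0681 and 0.236) and with the ribosomal scaling (-0.31, adjusted p = 0.0835). The Klf10 call in WT was lost without replicate 2 at 3 h (0.0734). Klf2 and Klf11 were not called at 0.5 h, although their mean shares left were below those of Klf6. Klf2 had 66.7 ± 18.3% left in WT and 65.5 ± 15.9% in KO, and Klf11 64.9 ± 10.6% and 60.5 ± 22.9% (SD). Both were at low counts at that time, from 10 to 34 per library.

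Klf4, known from alternative activation, had the largest share left of the 9 at 1, 2 and 4 h in both genotypes. In WT it was at 1.51, 1.20 and 1.11 CPM at 3 h of R837, at 2.01, 1.49 and 1.36 CPM after 0.5 h of ActD and at 1.99, 1.70 and 1.73 CPM after 1 h. In KO the 1 h libraries held 1.88, 0.733 and 0.809 CPM. The WT mean at 1 h lay above the start, whereas the KO libraries at 1 h spread widely with replicate 1 high. The share left in WT was 55.6% at 2 h and 18.2% at 4 h, and 35.1% and 17.6% in KO. DESeq2 did not call the fall of Klf4 at 2 h in WT (adjusted p = 0.0559), where edgeR did (log2 change -0.81 ± 0.31, edgeR adjusted p = 0.0278). The edgeR call was lost without WT replicate 1 at 3 h (adjusted p = 0.111) or WT replicate 1 or 3 at 2 h of ActD (0.116 and 0.0661). Between genotypes at 1 h of ActD, Klf4 differed by -0.62 ± 0.27 (edgeR adjusted p = 0.106), and by -1.22 (adjusted p = 0.00296) without KO replicate 1. The 2 h fall of Klf9 in WT was lost without WT replicate 2 of that time (-1.32, adjusted p = 0.0531).

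The other 7 KLFs had between 5.01 and 15.9% left at 4 h over both genotypes. The repressor Klf3 went from 93.4% in WT at 0.5 h to 63.9%, 21.9% and 9.29% at 1, 2 and 4 h. In KO it went from 88.0% to 46.7%, 19.4% and 9.01%. Over the 9 members the median share left was 84.0, 48.5, 18.2 and 9.29% in WT and 83.6, 41.9, 16.8 and 11.6% in KO at 0.5, 1, 2 and 4 h. Over all genes tested it was between 97.1 and 101% throughout. The 1 h time was not tested against the start.

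**Figure D2:**
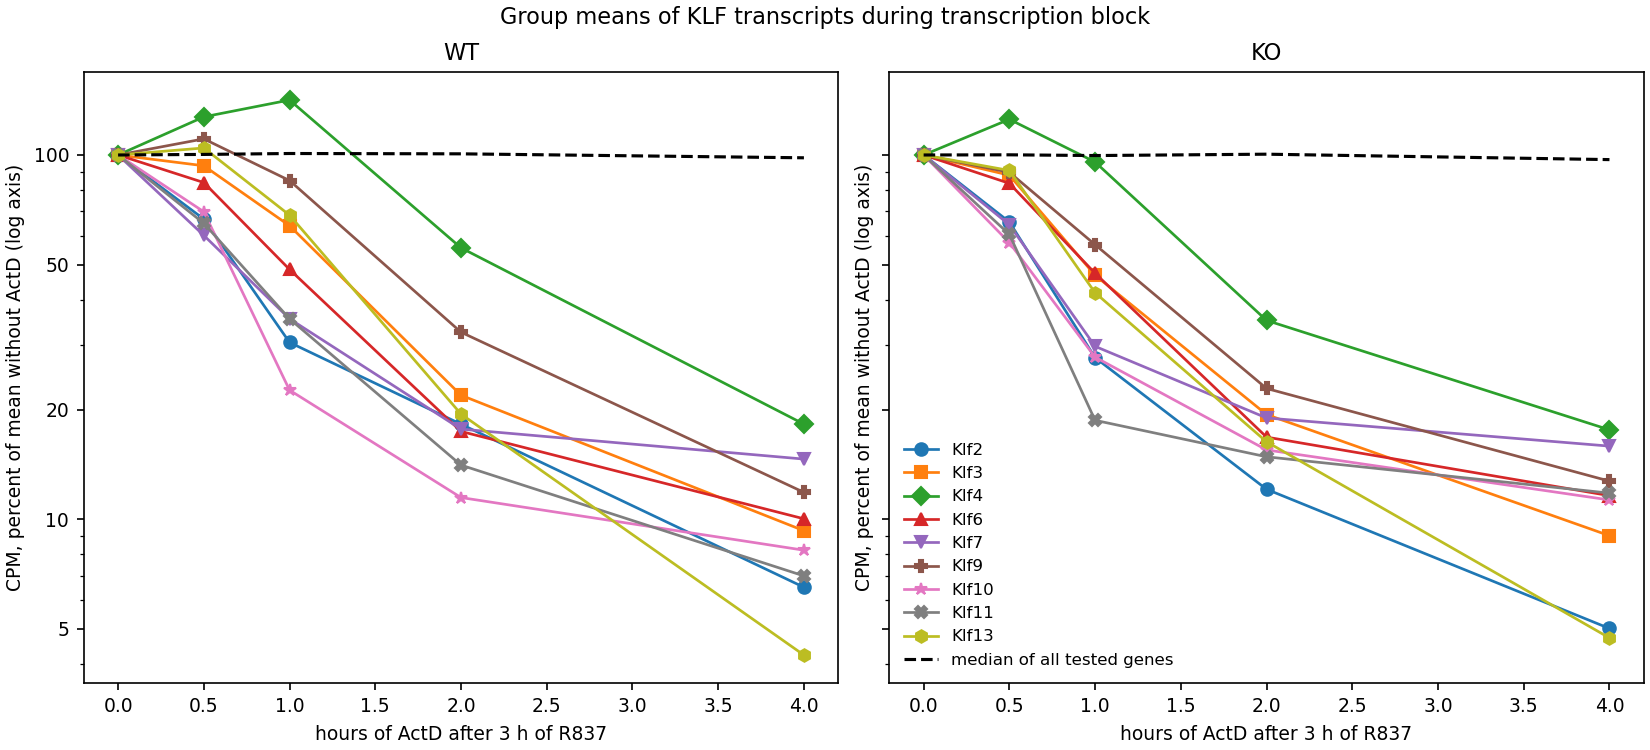
Percent of the mean level at 3 h of R837 that was left after 0.5 to 4 h of ActD for each KLF in WT and KO, on a log axis. Points are means of 3 libraries, and the dashed line is the median of all tested genes. Klf10 is lowest at 1 h in WT, Klf4 stays highest through 2 h in WT, and all 9 have between 4.23 and 18.2% left at 4 h.

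No difference between genotypes in this fall was called at 0.5, 2 or 4 h of ActD, the times tested. The 1 h fall was not tested between genotypes. At 1 h Klf13 had 68.4 ± 8.84% left in WT and 41.9 ± 1.27% in KO, and Klf3 63.9 ± 5.31% and 46.7 ± 3.21% (SD). Klf10 went the other way, with 22.6 ± 1.58% and 27.9 ± 5.55%. Klf13 and Klf3 are wide genes. Over all genes, Spearman's rho of the KO minus WT difference with exon width was 0.304 at 3 h and -0.287 at 1 h of ActD. With that trend removed, Klf13 differed by 0.28 at 3 h and -0.18 at 1 h, in place of 0.42 and -0.30. Klf3 differed by 0.68 and 0.41, in place of 0.78 and 0.33. The part of gene width in these shares was not tested. In the interaction of genotype with ActD, edgeR called 0 of 9 members at 0.5 h, 0 at 2 h and 0 at 4 h, where 0%, 0.0582% and 0.276% of all genes were called. At an unadjusted p under 0.05 the counts were 0, 0 and 1, the last being Klf6 with a log2 difference of 0.21 ± 0.10 (edgeR adjusted p = 0.569). DESeq2 called 0 members at each time. For the members that differed between genotypes throughout, the difference in the 4 h fall was -0.05 ± 0.16 (± SE) for Klf3 and 0.12 ± 0.17 for Klf7. The widest SE was that of Klf9, at -0.08 ± 1.33.

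Between 3 h and 7 h of R837, Klf10, Klf13 and Klf7 rose in both genotypes, and Klf3 and Klf6 fell in KO. In WT 27.3% of all genes were called higher, and in KO 28.6% were called higher and 31.7% lower, so these counts of 3 and 5 of 9 are near the background. Klf10 moved most. In WT it stood at 7.49, 9.57 and 7.89 CPM at 3 h and at 28.3, 27.4 and 28.5 CPM at 7 h. In KO it stood at 8.44, 6.16 and 7.90 CPM and then 11.2, 13.0 and 13.0 CPM. The 3 h libraries of the 2 genotypes overlapped, whereas at 7 h every WT library was above every KO library. The rise was 1.75 ± 0.12 (edgeR adjusted p = 1.00e-16) in WT and 0.72 ± 0.12 (edgeR adjusted p = 2.56e-06) in KO, and the difference between these changes, KO minus WT, was -1.03 ± 0.17 (edgeR adjusted p = 1.36e-05).

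The Ccl5 activator Klf13 went from 22.2, 26.3 and 18.4 CPM to 30.7, 34.0 and 33.2 CPM in WT and from 35.5, 29.2 and 24.2 CPM to 45.3, 47.2 and 45.7 CPM in KO. In both genotypes every 7 h library was above every 3 h library. The changes were 0.55 ± 0.12 (edgeR adjusted p = 1.23e-04) in WT and 0.63 ± 0.12 (edgeR adjusted p = 1.21e-05) in KO. Klf7 rose by 0.53 ± 0.10 (edgeR adjusted p = 8.76e-06) in WT and by 0.41 ± 0.09 (edgeR adjusted p = 2.39e-04) in KO. With the ribosomal scaling the rise of Klf7 in KO was 0.31 (adjusted p = 0.057).

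For Klf3 the gap between genotypes was narrower at 7 h than at 3 h. It held 101, 103 and 82.3 CPM at 3 h and 109, 104 and 98.1 CPM at 7 h in WT, against 186, 158 and 148 CPM and 128, 142 and 124 CPM in KO. The WT libraries of the 2 times overlapped, and every KO library at 7 h was below every KO library at 3 h. The change was 0.12 ± 0.10 (edgeR adjusted p = 0.293) in WT and -0.32 ± 0.10 (edgeR adjusted p = 0.00400) in KO, and the interaction was -0.44 ± 0.14 (edgeR adjusted p = 0.0252). This interaction rested on single libraries: it was -0.34 (adjusted p = 0.123) without WT replicate 3 at 3 h, -0.34 (adjusted p = 0.13) without KO replicate 1 at 3 h, and -0.24 (adjusted p = 0.371) without both, and it also lost the call without WT replicate 1, KO replicate 1 or KO replicate 3 at 7 h (adjusted p = 0.0763, 0.0605 and 0.075). The fall in KO was -0.22 (adjusted p = 0.0679) without KO replicate 1 at 3 h.

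Klf6 fell in KO by 0.29 on the log2 scale (edgeR adjusted p = 4.62e-04), from 1202 ± 35.6 to 983 ± 45.8 CPM (SD, n = 3), and its change in WT was -0.02 ± 0.07 (edgeR adjusted p = 0.808). The difference between these changes was -0.27 ± 0.10 (edgeR adjusted p = 0.0722) and passed with the ribosomal scaling (adjusted p = 0.0244), when only the libraries compared were fitted (0.011) and in DESeq2 (0.0271). Klf4 had changes of opposite sign that did not pass the test, -0.62 ± 0.29 (edgeR adjusted p = 0.0607) in WT and 0.52 ± 0.27 (edgeR adjusted p = 0.0967) in KO. Their difference was 1.14 ± 0.39 (edgeR adjusted p = 0.0505), and passed when only the libraries compared were fitted (adjusted p = 0.0283) or the trend with gene width was removed (adjusted p = 0.0407). Klf2, Klf9 and Klf11 had changes between -0.46 and 0.29, none of which passed. For the interaction, 2 of 9 members were called, both lower in KO, where 6.75% of all genes were called lower.

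**Figure D3:**
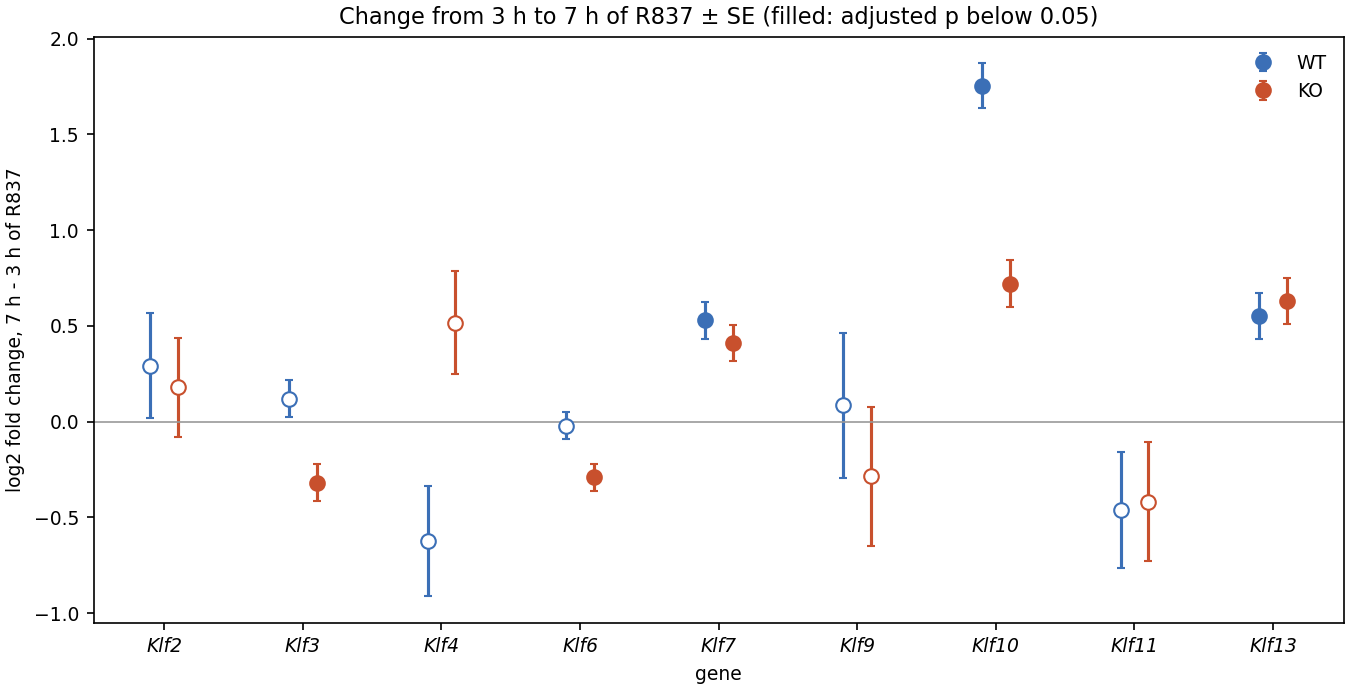
Log2 change from 3 h to 7 h of R837 for each KLF in WT and KO, with bars of 1 SE (n = 3 libraries per group). Klf10 rises by 1.75 in WT and 0.72 in KO, and Klf4 has values on either side of 0.

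At 7 h of R837 all 9 KLFs were above cells that had received R837 for 3 h and ActD for the next 4 h, in both genotypes, where 37.9% of all genes in WT and 38% in KO were called higher. The differences ran from 1.76 (Klf4) to 5.34 (Klf10) in WT and from 2.61 (Klf11) to 5.02 (Klf13) in KO, with member medians of 3.30 and 3.05 against -0.02 over all genes tested in each. Klf10 held 0.780, 0.777 and 0.493 CPM after 4 h of ActD in WT and 1.02, 0.706 and 0.816 CPM in KO, so the KO groups of ActD and 7 h lay closer together. The difference between these differences, KO minus WT, was -1.53 ± 0.29 (edgeR adjusted p = 2.12e-04). Klf6 held 121, 116 and 121 CPM after 4 h of ActD in WT and 144, 129 and 146 CPM in KO, and the corresponding value was -0.48 ± 0.10 (edgeR adjusted p = 7.00e-04). No other member passed this interaction, although Klf3 did when only the libraries compared were fitted (-0.39, adjusted p = 0.0285) and on the ribosomal scale (-0.67, adjusted p = 0.0370). In it 7.91% of all genes were called lower in KO. The comparisons with 3 h and with ActD use the same 7 h libraries.

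Klf3 and Klf7 were higher in KO in all 6 conditions, which held for 409 of the 13748 genes tested (2.97%), and no KLF was lower in all 6, which held for 259 genes (1.88%). The share of all genes called in either direction was 27.7% at 3 h, 26.4, 17.4, 30.1 and 35.6% after 0.5, 1, 2 and 4 h of ActD, and 30.5% at 7 h. Of the 9 members 3, 3, 2, 2, 3 and 6 were called. Each condition had its own 6 libraries, although all drew on 1 estimate of the spread.

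The CtBP-binding repressor Klf3 held 101, 103 and 82.3 CPM in WT and 186, 158 and 148 CPM in KO at 3 h of R837. After 0.5 h of ActD it held 103, 90.7 and 73.5 CPM in WT and 153, 155 and 125 CPM in KO. Both pairs of groups were apart, with KO replicate 1 at 3 h the highest library and WT replicate 3 at 3 h the lowest of its group. After 1 h of ActD the values were 57.9, 66.8 and 58.2 CPM in WT and 81.4, 71.0 and 77.7 CPM in KO. After 4 h they were 8.75, 9.69 and 8.16 CPM and 15.5, 15.2 and 13.6 CPM. The 1 h difference was the smallest of the 5 at 3 h of R837 and its groups were still apart. The log2 difference was 0.78 ± 0.10 (edgeR adjusted p = 4.26e-08) at 3 h, 0.70 ± 0.10, 0.33 ± 0.10, 0.61 ± 0.11 and 0.73 ± 0.13 after 0.5, 1, 2 and 4 h of ActD, and 0.34 ± 0.10 (edgeR adjusted p = 0.00489) at 7 h. The 1 h call (edgeR adjusted p = 0.0155) was lost without WT replicate 1 (adjusted p = 0.0735), WT replicate 3 (0.0705) or KO replicate 1 (0.0792) of that time.

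The activator Klf7, which has the widest exons of the 9 (8050 bases), held 29.7, 33.7 and 27.1 CPM in WT and 50.7, 49.9 and 41.1 CPM in KO at 3 h. It held 5.26, 4.87 and 5.86 CPM and 8.53, 9.32 and 9.01 CPM after 2 h of ActD. At 7 h the values were 44.5, 44.1 and 42.0 CPM and 59.7, 64.9 and 64.0 CPM. Every KO library lay above every WT library at 3 h, after 2 h of ActD and at 7 h. The log2 difference was 0.65 ± 0.10 (edgeR adjusted p = 2.07e-06) at 3 h, 0.75 ± 0.10, 0.39 ± 0.11, 0.76 ± 0.13 and 0.77 ± 0.14 after 0.5, 1, 2 and 4 h of ActD, and 0.53 ± 0.09 (edgeR adjusted p = 1.84e-05) at 7 h. As for Klf3, the 1 h value (edgeR adjusted p = 0.00972) was lost without WT replicate 1 (adjusted p = 0.095) or KO replicate 1 (0.0644) of that time.

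**Figure D4:**
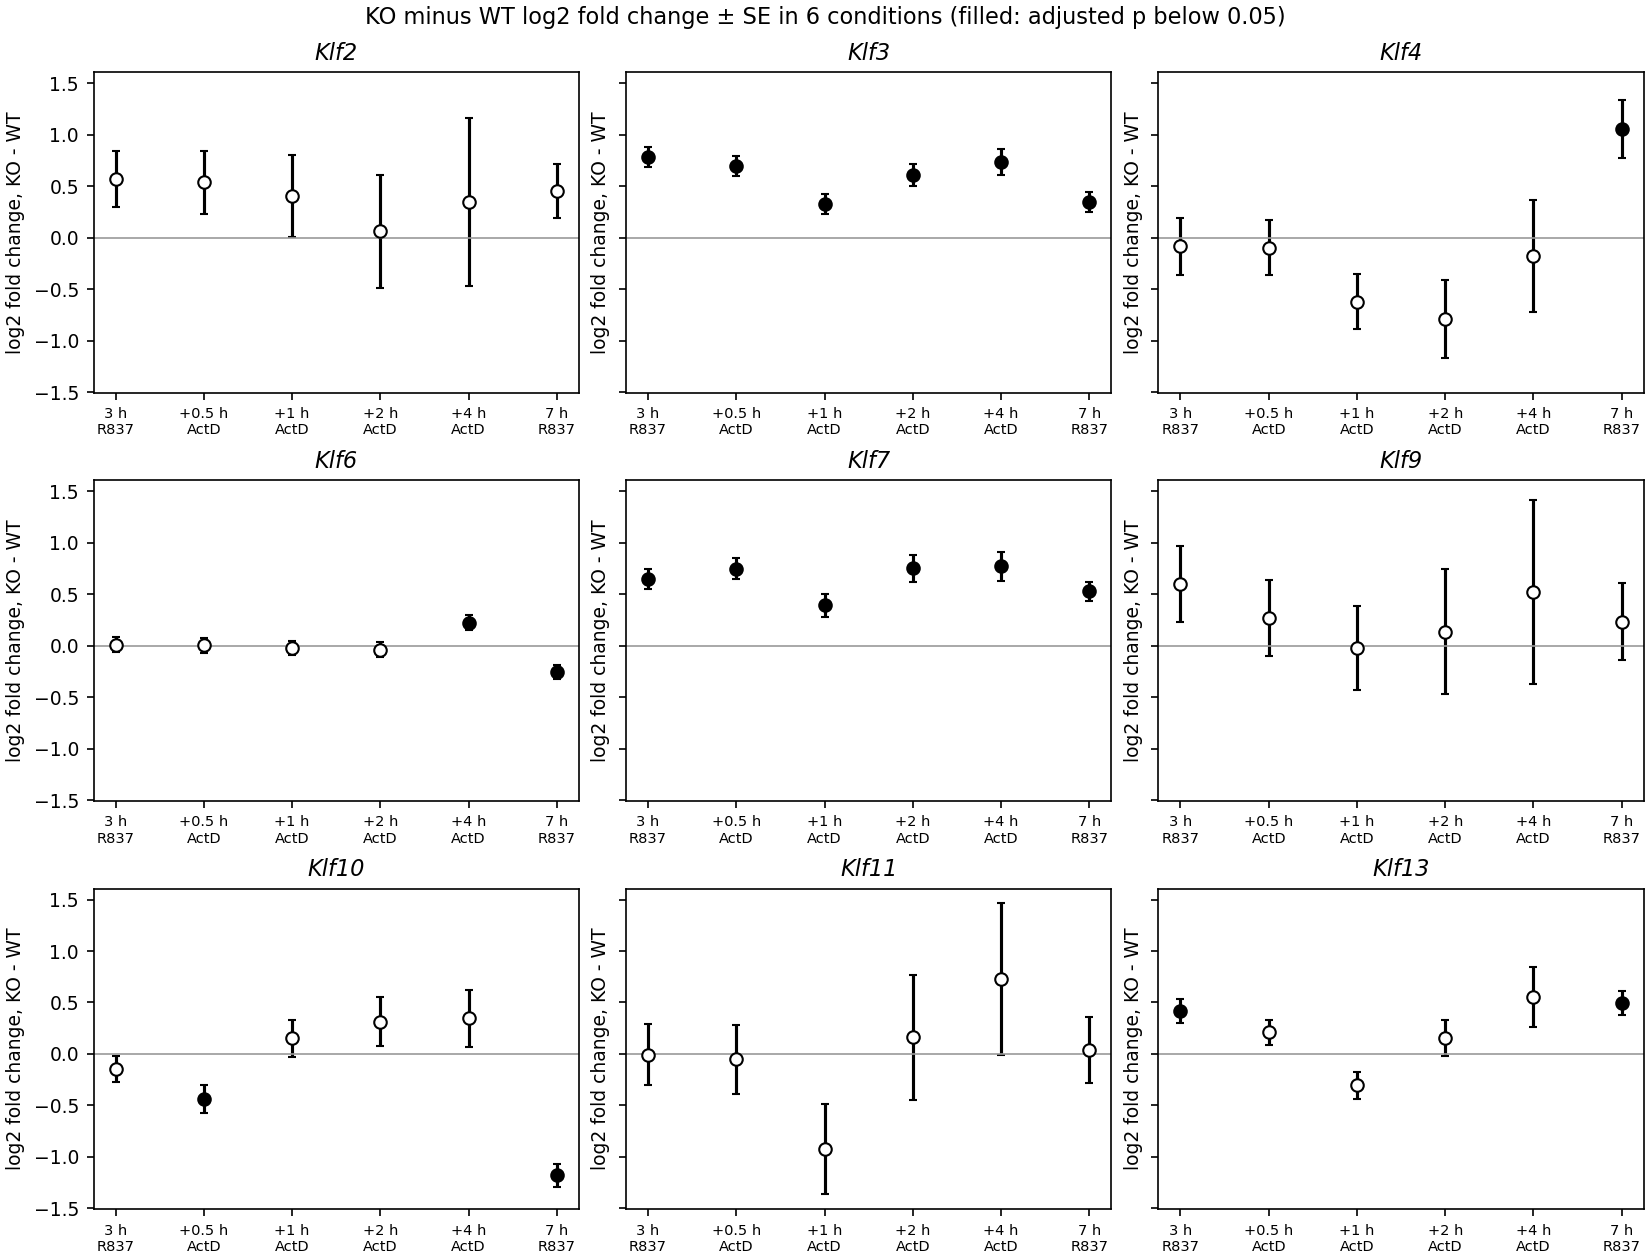
Log2 difference KO minus WT of the 9 KLFs in the 6 conditions, with bars of 1 SE (n = 3 libraries per group). Klf3 and Klf7 lie above 0 in all 6, and Klf10 at 7 h and Klf4 at 7 h lie far from 0 on opposite sides.

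At 7 h of R837 the KLFs separated by genotype in both directions: Klf4, Klf7, Klf13 and Klf3 were higher in KO and Klf10 and Klf6 lower, where 15.5% of all genes were called higher and 15% lower. Klf4 held 1.07, 0.811 and 0.580 CPM in WT and 1.54, 2.23 and 1.40 CPM in KO, with KO above WT in every library, and differed by 1.06 ± 0.28 (edgeR adjusted p = 0.00307). Klf10 was 28.0 ± 0.557 CPM in WT and 12.4 ± 1.06 in KO (SD, n = 3), a difference of -1.18 ± 0.11 (edgeR adjusted p = 2.69e-11). No difference was called at 3 h (-0.15 ± 0.12, edgeR adjusted p = 0.414), and Klf10 was lower in KO after 0.5 h of ActD (-0.44 ± 0.14, edgeR adjusted p = 0.0160), a call lost when only the libraries compared were fitted (adjusted p = 0.0633), under the ribosomal scaling (-0.30, adjusted p = 0.176) and without WT replicate 2, KO replicate 1 or KO replicate 3 of that time.

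Klf13 was higher in KO at 7 h (0.50 ± 0.12, edgeR adjusted p = 8.15e-04), with all 3 KO libraries above the 3 WT libraries. At 3 h it was also called (0.42 ± 0.12, edgeR adjusted p = 0.00834), but the groups overlapped. The 3 h difference was 0.29 (adjusted p = 0.109) without WT replicate 3, 0.26 (0.162) without KO replicate 1 and 0.14 (0.577) without both. After 1 h of ActD Klf13 had the opposite sign (-0.30, edgeR adjusted p = 0.108). It was called lower in KO there when only the libraries compared were fitted (-0.28, adjusted p = 0.0470), and was -0.44 (adjusted p = 0.0689) with the ribosomal scaling. Klf6 held 1211, 1157 and 1153 CPM in WT and 1033, 973 and 943 CPM in KO at 7 h, a difference of -0.26 ± 0.07 (edgeR adjusted p = 0.00430) with the groups apart. After 4 h of ActD it was higher in KO (0.22 ± 0.07, edgeR adjusted p = 0.0138), a call lost with the width trend removed (0.15, adjusted p = 0.105), when only the libraries compared were fitted (adjusted p = 0.0517) and without KO replicate 1 (0.059) or KO replicate 3 (0.053). At 3 h no difference was called (0.01 ± 0.07, edgeR adjusted p = 0.916).

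Klf2, Klf9 and Klf11 were not called between genotypes in any condition by the model over all 12 groups. Klf2 held 1.62, 1.62 and 0.856 CPM in WT and 2.23, 2.05 and 1.73 CPM in KO at 3 h; its groups were apart, but the difference of 0.57 ± 0.27 (edgeR adjusted p = 0.116) did not pass. It passed on the ribosomal scale (0.77, adjusted p = 0.0447). Klf2 at 7 h passed when only the libraries compared were fitted (0.46, adjusted p = 0.0488), where the value was 0.46 ± 0.26 (edgeR adjusted p = 0.201) over all groups. The glucocorticoid-induced Klf9 differed by 0.60 ± 0.37 (edgeR adjusted p = 0.227) at 3 h. Klf11 differed by -0.01 ± 0.29 (edgeR adjusted p = 0.991) at 3 h and 0.04 ± 0.32 (edgeR adjusted p = 0.947) at 7 h. The SE of these 3 genes was 0.27 to 0.37 at 3 h, against 0.10 for Klf3 and Klf7, so a p above the threshold does not show that their levels were alike.

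The scaling and the width of the genes moved with the genotype difference. Libraries were also scaled on 83 genes of ribosomal proteins and elongation factors. The median log2 difference over all genes was then 0.21 at 3 h, 0.12, -0.15, 0.14 and 0.28 after 0.5, 1, 2 and 4 h of ActD, and -0.01 at 7 h. In the model used above it lay between -0.02 and 0.01 in all 6 conditions. The share of called genes that were higher in KO went from 54.7 to 90.1% at 3 h and, after 0.5, 1, 2 and 4 h of ActD, from 51.9 to 78.8%, from 42.9 to 16.9%, from 48.8 to 78.1% and from 49.8 to 89.3%. On that scale Klf3 differed by 0.99, 0.82, 0.19, 0.76, 1.02 and 0.34 in the 6 conditions in the same order, and the calls at 1 h of ActD and at 7 h were lost (adjusted p = 0.389 and 0.0926). Klf7 differed by 0.85, 0.87, 0.25, 0.91, 1.06 and 0.53, and its 1 h call was lost (adjusted p = 0.254). The 7 h call of Klf6 was lost too (-0.26, adjusted p = 0.0584). After 4 h of ActD Klf6 differed by 0.50, and Klf13, not called before (0.55 ± 0.29, edgeR adjusted p = 0.146), passed at 0.85 (adjusted p = 0.0403). The uncalled 3 h values of Klf10, Klf4 and Klf11 changed sign, to 0.06, 0.12 and 0.20.

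Wide genes tended to be higher in KO at 3 h. Spearman's rho of the log2 difference with exon width over 13748 genes, which are not independent replicates, was 0.304 at 3 h, 0.223, -0.287, 0.136 and 0.244 after 0.5, 1, 2 and 4 h of ActD, and 0.0997 at 7 h. Klf7, Klf13 and Klf3 are wide, at percentiles 94.8, 90.2 and 82.9 of the genes tested. With the trend removed, Klf3 differed by 0.68, 0.63, 0.41, 0.54, 0.62 and 0.29 and Klf7 by 0.49, 0.61, 0.55, 0.68, 0.61 and 0.44, all still called. Klf13 differed by 0.28 at 3 h and 0.43 at 7 h, both called. Among marker sums, the 6 dendritic cell genes summed to 17.8 to 19.2 CPM in WT and 34.8 to 35.6 in KO at 7 h. Most of the highest sums was Ccr7, an inducible chemokine receptor gene (up to 33.1 CPM). Siglech reached at most 5.39 CPM in a library, and Flt3, Zbtb46, Xcr1 and Cd209a at most 1.26, 2.35, 0.205 and 0.412 CPM. The part of such cells in the 7 h difference of Klf4 was not tested.

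Scaling also bears on time. On the ribosomal scale the all-gene median was -0.35 in WT and -0.40 in KO after 2 h of ActD, and -0.63 and -0.58 after 4 h. For 7 h of R837 against ActD it was 0.69 and 0.42. The share of called genes that were higher went from 46.8 to 7.32% in WT and from 46.5 to 3.93% in KO at 2 h, from 46.6 to 7.52% and from 46.0 to 7.71% at 4 h, and from 50.4 to 85.4% and from 51.3 to 74.6% for 7 h against ActD. After 0.5 h of ActD it went from 51.3 to 26.1% in WT and from 41.6 to 11.1% in KO. For the interaction of genotype with 7 h against 3 h it went from 44.4 to 14.5%, and for that with 7 h against ActD from 45.9 to 7.43%. The 9 KLFs were called in the same direction on both scales after 2 and 4 h of ActD and for 7 h against ActD.

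Other genes of the KLF system were read from 5 lists, only in the model over all 12 groups and not under the alternatives. At 3 h the genes called between genotypes went from 3815 to 1482 with KO replicate 1 and WT replicate 3 left out. Wide genes also tended to be higher in KO at 3 h (Spearman's rho 0.304), so the 3 h calls below carry these limits. Of all genes tested, 15.2% were called higher and 12.6% lower in KO at 3 h, and 15.5% and 15% at 7 h. From 3 h to 7 h, 27.3% rose and 30.7% fell in WT, and 28.6% and 31.7% in KO. Of 17 other KLF and SP family members, 6 were tested. At 3 h of R837, 3 of these 6 were higher in KO and 0 lower, with a median of 0.15 against 0.01 over all genes. They were Sp1 (0.40), Klf16 (0.42), Sp2 (0.28), Sp1 and Sp2 being GC-box binders of the SP branch. At 7 h Klf16 was higher (0.63) and Klf8, a CtBP-binding repressor like Klf3, lower (-0.98), with a median of 0.04 against -0.01. From 3 h to 7 h Klf8 changed by -1.11 in WT and -1.76 in KO, and 3 members rose and 3 fell in WT, 2 and 2 in KO.

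Of 10 co-repressors and co-activators, 3 were higher in KO at 3 h and 0 lower, beside 15.2% and 12.6% of all genes: Sin3a (0.42), Ep300 (0.32), Crebbp (0.34). Sin3a is the scaffold bound by the Klf9, Klf10, Klf11 and Klf13 branch, and Ep300 and Crebbp are acetyltransferases. The list's median was -0.05 at 3 h and 0.02 at 7 h, where Sin3a was higher (0.27) and the acetyltransferase gene Kat2b lower (-0.25). Over time 6 of 10 rose and 1 fell in each genotype, beside 27.3% and 30.7% of all genes in WT and 28.6% and 31.7% in KO, with Kat2b up by 1.01 in WT and 0.97 in KO.

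Of 12 genes of the ERK5-MEF2 and TGF-beta-SMAD routes, 5 were higher in KO at 3 h and 0 lower (median 0.25), beside 15.2% and 12.6% of all genes. Among them were the MEF2 factors Mef2d (0.58) and Mef2a (0.27) and Mapk7 (0.42), which encodes ERK5. At 7 h 5 were higher and 3 lower (median 0.13), beside 15.5% and 15% of all genes, with the TGF-beta receptor genes Tgfbr1 at 0.40 and Tgfbr2 at -0.57, and Mef2c at -1.32. From 3 h to 7 h Tgfbr1 changed by -2.42 in WT and -2.16 in KO. Of 4 ubiquitin ligases that act on KLF proteins, Smurf1 was higher in KO at 3 h (0.44) and Wwp1 lower at 7 h (-0.66). Over time Wwp1 changed by -2.59 in WT and -3.26 in KO.

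Of 14 genes reported elsewhere as KLF targets, 12 were tested. At 3 h 5 were higher and 5 lower in KO (median -0.05), beside 15.2% and 12.6% of all genes, and at 7 h 5 were higher and 4 lower (median -0.04), beside 15.5% and 15%. Among those higher at 7 h were the chemokine gene Ccl5 (0.95), Cdkn1a (0.70), the clock gene Per1 (0.51) and Chil3 (0.45). Thbd, the anticoagulant thrombomodulin and a KLF2 and KLF4 target in endothelium, was lower in KO at 7 h (-2.37). Also lower were Arg1 (-1.32), Mrc1 (-0.65) and the glucocorticoid-induced Tsc22d3 (-1.61). Cdkn1a, a cell cycle inhibitor, was also higher in KO at 3 h (0.43).

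Across the 12 group means of log2 CPM the members ran together, since all are low after ActD. Pearson's r between members ranged from 0.637 (Klf4 and Klf10) to 0.992 (Klf3 and Klf9), as a description over 12 groups that share the ActD series. Among the 8208 or 8209 candidate genes with a mean of at least 5 CPM, those most like each member had r of 0.968 or more over the 12 groups. They were Usp37, Zfp871 and Trmt10c for Klf2, Cnot4, Dusp4 and Akna for Klf3, Nod1, Zfp800 and Kctd6 for Klf4, and Papolg, Brf2 and Tob2 for Klf6. For Klf7 they were Ppp1r15a, Foxn2 and Phlda1, for Klf9 Gna13, Zfp622 and Rsbn1, and for Klf10 Fos (r = 0.979), Rusc2 and Cttnbp2nl. For Klf11 they were Tagap, Zbtb21 and Plk2, and for Klf13 Scaf8 (r = 0.997), Brpf1 and Lsm11. The lowest of the best matches was that of Klf4 (Nod1, r = 0.970).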

How the data were processed

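RNA was sequenced from macrophages of 12 groups, 3 libraries each, with a kit that does not mark strand, per the labels. Reads were aligned with GSNAP to GRCm38, per the submitters' processing notes. The sources used here do not give the counting program, its annotation release or the strand setting. Deposited files give a whole-number count, an RPKM and an exon width in bases (a unit in no fixed class) per gene and library, as the authors computed them. Symbols were taken from GENCODE M21 by Ensembl identifier. The members and gene lists were chosen with earlier results of these data known. All members are named, with N4bp1, genes of each list, and the 3 genes most like each member. From a list, the 3 genes with the smallest p in each contrast could be named, and further genes where they completed a small count. Some genes of the target list are not reported here.

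Counts were tested with edgeR 4.0.16 in R 4.3.3 (limma 3.58.1): filterByExpr left 13748 genes, TMM scaled the libraries, and 1 quasi-likelihood model over all 12 groups gave 21 contrasts, with Benjamini-Hochberg adjustment over all genes tested and a call at 0.05. The biological coefficient of variation was 7.48%. Levels in CPM use the TMM library sizes. No 2 libraries agreed within sampling noise. The labels number no replicates, so numbers follow the order of the records, and libraries were treated as independent; if conditions share mice, p-values may be too small. The code was tested on simulated counts. Alternatives were DESeq2 1.42.0, other scalings and filters, the libraries compared alone, each library left out in turn, and 2 choices added after seeing the data (a trend with gene width removed, and 2 libraries at 3 h left out together).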

Additional observations from a re-analysis of the deposited data

Results flagged for a closer look

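4 values differed between WT and KO by a test of the difference itself, the genotype term in a change over time or treatment (edgeR, adjusted over 13748 genes). Klf10 rose less in KO from 3 h to 7 h of R837, with a difference between the log2 changes of -1.03, and its gap between 7 h of R837 and 4 h of ActD was smaller in KO by a log2 value of -1.53. Both comparisons use the same 7 h libraries. The gap of Klf6 between 7 h and 4 h of ActD was smaller in KO, at -0.48. The change of Klf3 from 3 h to 7 h differed by -0.44, a call that was lost when any 1 of 5 libraries was left out.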

How the results depend on the processing

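No paired analysis was possible because the labels give no replicate numbers. Of 4004 values of members whose reported value was called, 0 changed sign under the alternatives run. Of 4304 whose reported value was not called, 164 did. Most of these values come from fits with 1 library left out, and that library was mostly outside the contrast. Such fits can hardly move a value, so these counts and the left-out counts below say little of how firm a value is. For single members, 1469 values under other settings stayed on their side of the threshold, 15 passed newly and 20 were lost; with a library left out the counts were 6760, 15 and 29. The ribosomal scaling took the members called between genotypes after 1 h of ActD from 2 to 0, and those called after 0.5 h of ActD in WT from 3 to 1. The genes called after 0.5 h of ActD went from 1003 to 364 in WT and from 1021 to 531 in KO. Those called in the genotype difference of the ActD change went from 8 to 0 at 2 h and from 38 to 21 at 4 h. With only the libraries compared, the genes called between genotypes after 0.5 h of ActD went from 3627 to 2040, the members called in the genotype difference of the change from 3 h to 7 h from 2 to 4, the genes and members called after 0.5 h of ActD in WT to 267 and 1, and the genes called in the genotype difference of the ActD change to 25 at 2 h and 6 at 4 h. With KO replicate 1 and WT replicate 3 at 3 h both left out, the genes called between genotypes at 3 h went from 3815 to 1482. In that setting the genotype difference from 3 h to 7 h gave 1113 genes in place of 1670 and 1 member in place of 2, 0.5 h of ActD in WT gave 637 genes, and the genotype difference of the ActD change at 2 h gave 1 gene. Without a filter on low counts the genes called in the genotype difference of the ActD change were 27 at 0.5 h in place of 0, 75 at 2 h and 98 at 4 h. DESeq2 called 43 there at 2 h and 78 at 4 h, and removing the width trend left 5 at 2 h. The share of these called genes with a value above 0, meaning a larger rise or a smaller fall in KO, was 62.5% at 2 h and 71.1% at 4 h. With only the libraries compared it was 20% and 100%. The cause of these differences was not tested. With each library left out in turn, the genes called between genotypes at 3 h ranged from 2204 to 4259, and those after 0.5 h of ActD from 600 to 1865 in WT and from 543 to 1197 in KO. Left out likewise, members called between genotypes at 1 h of ActD ranged from 0 to 2 and in the difference from 3 h to 7 h from 1 to 3, and the genes called in the genotype difference of the ActD change from 0 to 5 at 0.5 h, 1 to 10 at 2 h and 14 to 52 at 4 h. Depth limits Klf2, Klf4, Klf9 and Klf11, with medians of 13.5 to 29.5 counts per library.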
